A study of Mus musculus with 22 samples.

Results

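Collagen alpha chains were followed at the transcript level in whole ovaries of mice of the outbred CD1 stock by bulk RNA sequencing. The chains were chosen by symbol, as every gene named Col, a number, the letter a and a number, which gave 44 of the 34745 genes in the table. They were placed in 3 classes by the assembly they are known for: 11 fibrillar chains, 8 basement membrane chains (the 6 chains of type IV and the multiplexins Col15a1 and Col18a1) and 25 others. The ovaries came from wild-type animals at embryonic days 13, 15 and 17 (E13, E15, E17), on the day of birth (P0), at 5 postnatal ages named by their day (P3, P7, P14, P21 and P60), and at 1 and 2 years (Y1, Y2). Each age had 2 libraries, 22 in all, and no age carried a treatment or an engineered allele. Separate animals, pools and the cycle stage of adults are not mentioned in the labels. The p-values therefore reflect only how far these libraries differ, and that spread may be technical.

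Collagens are built from alpha chains wound into a helix, and the chains that join decide what is built. Fibrillar collagens (types I, II, III, V, XI, XXIV and XXVII) form the banded fibrils that carry tension in connective tissue, type IV collagen forms the sheet-like network of basement membranes, and type VI forms beaded filaments that link fibrils to cells. In the ovary, fibrils run through the stroma, the theca and the outer capsule, and a basement membrane surrounds every follicle and separates its granulosa cells from the vessels outside. In cattle, the set of type IV chains in the follicular basement membrane is known to change as follicles grow.

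All values are FPKM (fragments scaled by transcript length and by the mapped fragments of the library), a level per length that allows chains to be set side by side. A log2 change is the difference of log2(FPKM + 1), later age minus earlier age, from a limma fit to all libraries, with p-values adjusted by the Benjamini-Hochberg method over the 16117 genes at 1 FPKM or more in at least 2 libraries and called at 0.05. This scale understates the change of chains near or under 1 FPKM. The libraries held an estimated 11480000 to 18140000 reads, so that 1 FPKM of a 5 kb transcript stood for 57.4 to 90.7 reads. Foxl2, a transcription factor of granulosa cells that marks the ovary, was detected in all 22 libraries, at 10.01 and 10.99 FPKM at E13 and 99.9 and 111 FPKM at P7. Replicates correlated across genes with a Pearson r of 0.980 to 0.992 at 10 ages and 0.940 at Y2, whose libraries stand apart from each other. Values of fetal libraries carry fewer decimals in the table than those of postnatal libraries, so a separate quantification of the fetal libraries cannot be told apart from age between E17 and the ages after birth.

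Collagen transcripts made up 0.168% to 0.954% of all FPKM in a library. Summed over the 44 chains, the level was 1282 and 1276 FPKM at E13, 2263 and 2174 at E15, 1341 and 1401 at E17, 1907 and 2305 at P0, 2468 and 2261 at P3 in the fetal and newborn ovary. It was 1852 and 1807 FPKM at P7, 1409.9 and 1620.2 at P14, 1099 and 1085 at P21, 1378 and 1397 at P60, 1001 and 895 at Y1, 511 and 618 at Y2 in the older ovaries. The sum was therefore high at E15 and around birth and lowest at Y2. In bulk tissue, fewer cells of a type and less RNA per cell cannot be told apart.

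The classes did not keep the same share of this sum. Fibrillar chains held 55.8 and 56.5% of collagen FPKM at E15, 34.8 and 33.7% at P21, 42.1 and 39.6% at P60 and 22.1 and 20.02% at Y2. Basement membrane chains held 11.6 and 10.4% at E15, 32.6 and 32.9% at P21, 26.4 and 26.4% at P60 and 24.3 and 39.6% at Y2. Type VI chains, the beaded filament collagens, held 17.7 and 17.8% at E13, 26.8 and 29.4% at P60 and 47.2 and 36.1% at Y2. The fibrillar share was thus smallest in both Y2 libraries, and the basement membrane share differed widely between the Y2 libraries.

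**Figure D1:**
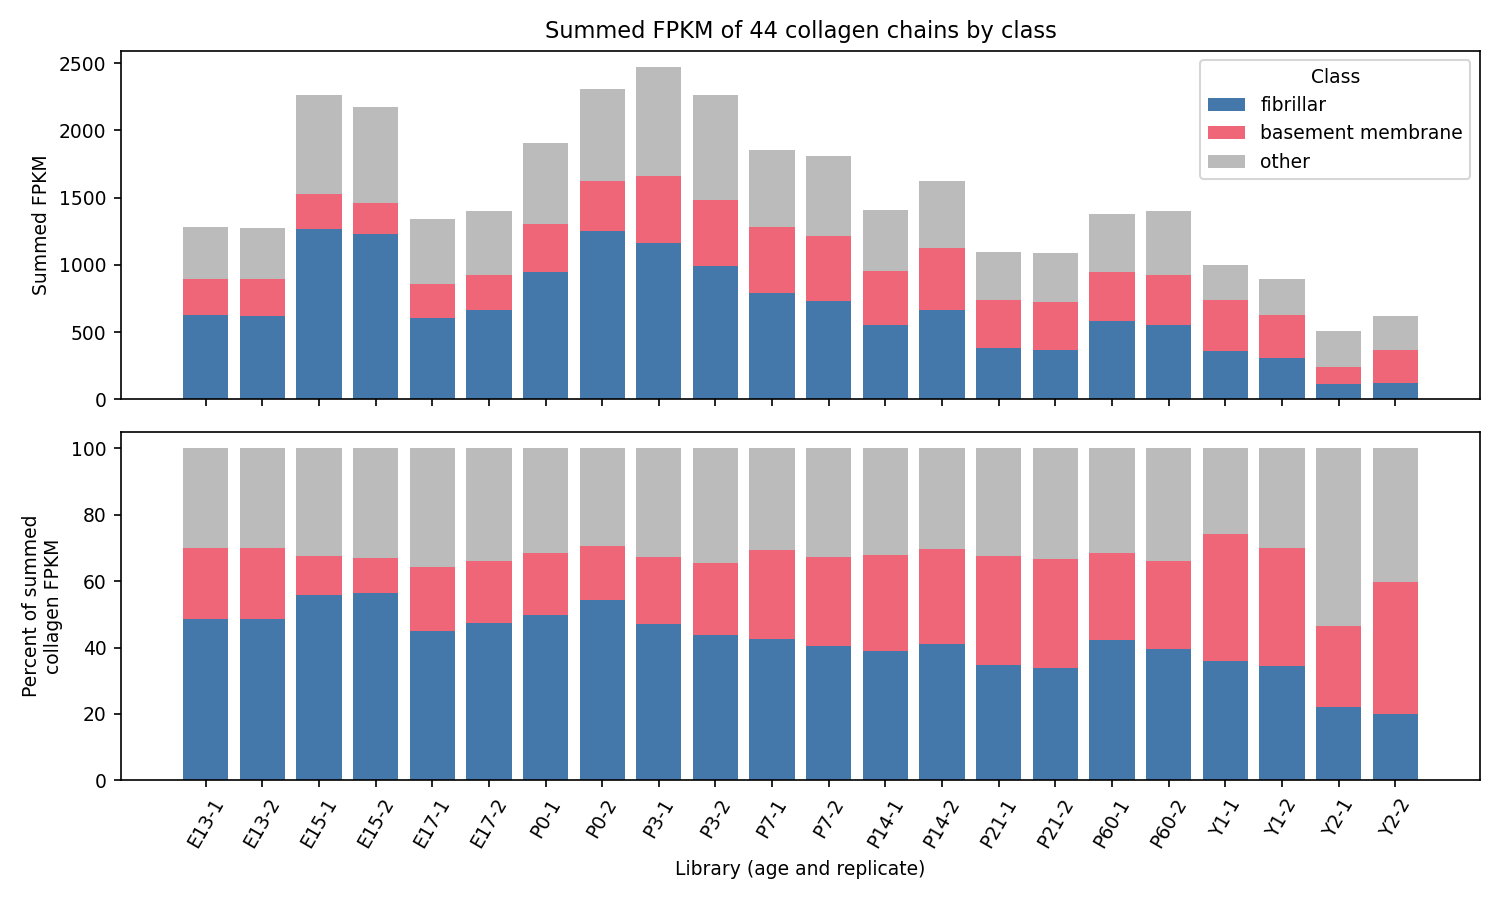
Stacked bars of the summed FPKM of the fibrillar, basement membrane and other collagen chains (upper panel) and their percent of all collagen FPKM (lower panel) in each of the 22 libraries, named by age and replicate. The fibrillar sum was 1264 and 1229 FPKM at E15 and 113 and 124 FPKM at Y2.

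Of the 44 chains, 38 passed the filter on low values: 10 of 11 fibrillar, 8 of 8 basement membrane and 20 of 25 other chains. Each of the 38 varied over the 11 ages in the moderated F test, which called 88.1% of all genes tested. The age of the highest mean was E15 for 12 chains and P3 for 13, and no chain of the 38 peaked at Y1 or Y2. The lowest mean fell at Y2 for 20 of them, among which were 9 of the 10 fibrillar chains, against 4 of 8 basement membrane chains and 7 of 20 others. The chain that led the level also changed with age. Col3a1 led in both libraries of E13, E17, P3 and P7, and Col1a1 in both E15 libraries. Col4a1 led in both P21 and both Y1 libraries, and Col6a1 in both Y2 libraries. At P0, P14 and P60 the leading chain differed between the replicates.

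Type I collagen, the main tensile fibril protein, is made of the Col1a1 and Col1a2 chains. Col1a1 measured 167 and 165 FPKM at E13, 463 and 449 at E15, 166 and 199 at E17, 319 and 456 at P0 and 341 and 289 at P3. At later ages it measured 215 and 189 FPKM at P7, 141.1 and 183 at P14, 93.5 and 91.6 at P21, 144 and 146 at P60, 87.7 and 78.9 at Y1 and 20.5 and 26.6 at Y2. Its highest libraries were those of E15 and the second library of P0, and both Y2 libraries lay below every other library. Col1a2 measured 101 and 101 FPKM at E13, 197 and 196 at E15, 83.7 and 94.5 at E17, 127 and 165 at P0 and 184 and 172 at P3. From P7 on it measured 136 and 139 FPKM at P7, 115 and 128 at P14, 81.5 and 77.3 at P21, 101 and 105 at P60, 62.9 and 55.98 at Y1 and 26.1 and 22.4 at Y2. The ratio of Col1a1 to Col1a2 had a median of 1.504 over the 22 libraries and ranged from 0.786 to 2.76, with 2.51 and 2.76 at P0 and 0.786 and 1.19 at Y2. The Y2 library at 0.786 was the only one in which Col1a1 lay below Col1a2. A type I molecule normally holds more Col1a1 than Col1a2 chains, but a ratio of FPKM does not measure the chains in the protein.

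Type III collagen, the product of Col3a1, forms the fine reticular fibres of soft organs. Col3a1 measured 233 and 229 FPKM at E13, 426 and 422 at E15, 255 and 253 at E17, 354 and 432 at P0 and 432 and 354 at P3. It then measured 310.2 and 273 FPKM at P7, 187 and 243 at P14, 133 and 128 at P21, 243 and 217 at P60, 149 and 119 at Y1 and 40.03 and 45.4 at Y2. Its course had the same high ages as Col1a1, E15 and P0 to P3, and the same low at Y2, while its ratio to Col1a1 ranged from 0.919 to 1.95.

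Type V chains, which start fibrils and limit their width, lay below types I and III. Col5a1 was highest at P0 with a mean of 99.3 FPKM and lowest at Y2 with 13.1 FPKM, and Col5a2 was highest at P3 with 69.9 FPKM and lowest at Y2 with 7.11 FPKM. Col5a3, a further type V chain, varied strongly between replicates around birth, with 3.19 and 9.53 FPKM at P0 and 5.41 and 2.57 FPKM at P3. Of the P0 libraries, the second had the higher value for 29 of the 38 chains. Col11a1, a type XI chain best known from cartilage fibrils, took another course: 6.60 and 7.61 FPKM at E13, 6.76 and 5.88 at E15, 1.95 and 2.19 at E17, 1.58 and 2.17 at P0 and 6.35 and 8.35 at P3. It had 21.3 and 13.3 FPKM at P14 and 18.2 and 16.2 FPKM at P21, where Col1a1 and Col3a1 were well below their newborn levels, and measured 3.25 and 2.64 FPKM at Y2. The minor fibrillar chains Col11a2, Col24a1 and Col27a1 had highest means of 2.31, 3.26 and 10.4 FPKM, all at P3. Col2a1, the cartilage fibril chain, did not pass the filter, with 0.728 and 0.828 FPKM at E13 and both P21 libraries listed at 0.

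**Figure D2:**
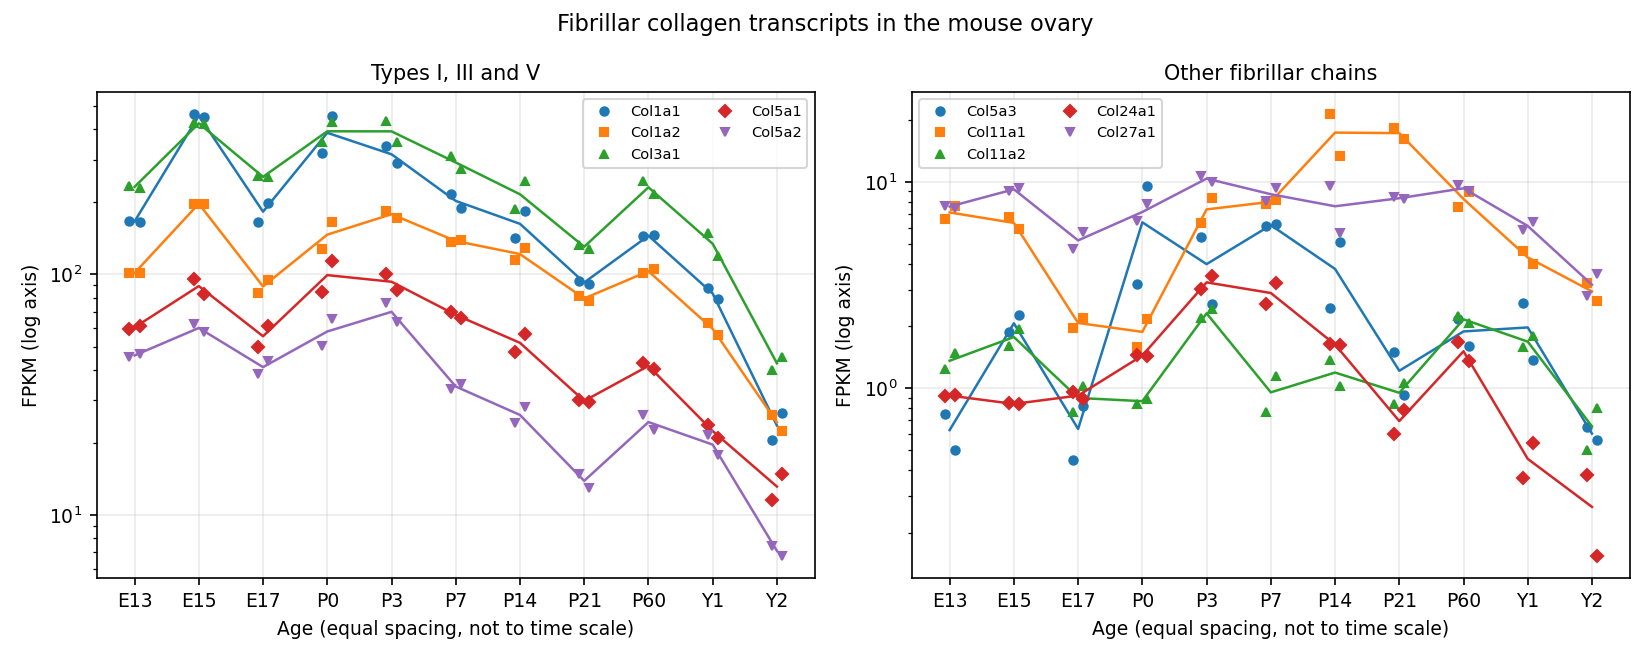
FPKM of fibrillar collagen chains in each library by age, on log axes. Points are libraries and lines join the age means. Col1a1 and Col3a1 are highest at E15 or around birth and lowest at Y2, whereas Col11a1 is highest at P14, at 21.3 and 13.3 FPKM.

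The start regions of Col3a1 and Col11a1 are shown because these fibrillar chains peaked at different ages. Both are the 250 bases before the annotated start, from RefSeq on GRCm38.p6 and printed 5′ to 3′ on the + strand of the gene: chr1:45311288-45311537 for Col3a1 and chr3:114030290-114030539 for Col11a1. Capitals mark matches on either strand to 3 promoter motifs, the CCAAT box (CCAAT), the GC box (GGGCGG) and the TATA box (TATAAA). These were found in 33.8%, 32.7% and 12.4% of all 32851 promoters of the same table.
Col3a1: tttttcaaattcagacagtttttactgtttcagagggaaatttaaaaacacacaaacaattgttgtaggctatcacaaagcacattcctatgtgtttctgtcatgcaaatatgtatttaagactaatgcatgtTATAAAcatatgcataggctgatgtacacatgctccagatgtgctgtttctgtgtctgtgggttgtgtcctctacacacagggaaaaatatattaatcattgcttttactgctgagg
Col11a1: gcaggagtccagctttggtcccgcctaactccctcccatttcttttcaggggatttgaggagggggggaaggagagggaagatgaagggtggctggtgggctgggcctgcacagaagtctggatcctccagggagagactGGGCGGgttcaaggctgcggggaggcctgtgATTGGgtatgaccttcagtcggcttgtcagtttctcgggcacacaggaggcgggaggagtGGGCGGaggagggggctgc

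The Col3a1 window held 1 TATA box match, near its middle, and 35.2% G and C. The Col11a1 window held 1 CCAAT box and 2 GC box matches and 62.4% G and C. The median G and C content over all promoters was 52.4%. Of the 8 fibrillar chains with a promoter in the table, 3 had a CCAAT box, 6 a GC box and 2 a TATA box. Of the 7 basement membrane chains the counts were 4, 4 and 0, and of the 20 other chains 6, 11 and 3. A match describes the letters of the window and no binding was measured.

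Col4a1 and Col4a2 make the type IV network found in nearly all basement membranes. Col4a1 measured 103 and 102 FPKM at E13, 101 and 82.4 at E15, 104 and 107 at E17, 157 and 157 at P0 and 228 and 226 at P3. From P7 on it measured 219 and 223 FPKM at P7, 174 and 205 at P14, 183 and 183 at P21, 179 and 178 at P60, 207 and 164 at Y1 and 55.05 and 134 at Y2. From P3 to Y1 all its libraries lay above those of E13 to E17 and P0, and the Y2 libraries stood far apart. Col4a2 measured 59.9 and 60.7 FPKM at E13, 52.4 and 44.3 at E15, 68.05 and 68.6 at E17, 98.2 and 98.9 at P0 and 133 and 133 at P3. From P7 on it measured 127 and 128 FPKM at P7, 112 and 133 at P14, 102 and 105 at P21, 102 and 106 at P60, 115 and 94.5 at Y1 and 32.3 and 80.6 at Y2. The ratio of Col4a1 to Col4a2 stayed between 1.53 and 1.92 in all 22 libraries, a narrower range than that of the type I chains. The annotated exons of these neighbours overlap at their starts on opposite strands, and whether the counting used strand is not given in the sources used here.

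Col4a3 and Col4a4, which with Col4a5 form the type IV network known from the kidney glomerulus, had the widest range among the basement membrane chains. Col4a4 measured 0.774 and 0.637 FPKM at E13, 0.712 and 0.508 at E15, 1.96 and 2.14 at E17, 3.41 and 2.54 at P0 and 12.7 and 16.02 at P3. It then measured 34.4 and 32.5 FPKM at P7, 29.5 and 28.7 at P14, 14.8 and 14.3 at P21, 7.93 and 8.76 at P60, 5.84 and 7.06 at Y1 and 5.29 and 3.83 at Y2. The chain was near or below 1 FPKM at E13 and E15, highest at P7, and had a lower mean at each later age. Col4a3 measured 0.235 and 0.255 FPKM at E13, 0.131 and 0.122 at E15, 0.475 and 0.542 at E17, 0.766 and 0.721 at P0 and 2.75 and 3.34 at P3. It then measured 7.86 and 6.92 FPKM at P7, 8.74 and 9.44 at P14, 3.86 and 4.13 at P21, 2.25 and 2.15 at P60, 1.26 and 1.23 at Y1 and 1.64 and 1.24 at Y2. Col4a3 ran at 0.174 to 0.400 of the level of Col4a4 throughout. Set against Col4a2, Col4a4 stood at 0.0136 and 0.0115 at E15, 0.270 and 0.253 at P7 and 0.0506 and 0.0746 at Y1.

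Col4a5 and Col4a6, the remaining type IV chains, had their highest levels before birth. Col4a5 measured 41.9 and 40.8 FPKM at E13, 44.01 and 42.1 at E15, 30.5 and 31.6 at E17, 20.7 and 28.98 at P0 and 25.3 and 24.6 at P3. From P7 on it measured 25.2 and 24.4 FPKM at P7, 17.9 and 21.1 at P14, 16.5 and 14.9 at P21, 18.1 and 20.4 at P60, 13.9 and 13.4 at Y1 and 11.3 and 7.71 at Y2. Col4a6 measured 17.3 and 18.6 FPKM at E13, 21.6 and 18.3 at E15, 7.44 and 8.24 at E17, 6.25 and 10.1 at P0 and 7.77 and 5.68 at P3. It then measured 9.86 and 7.83 FPKM at P7, 5.46 and 6.93 at P14, 7.47 and 7.77 at P21, 6.19 and 7.19 at P60, 5.53 and 5.73 at Y1 and 5.71 and 2.78 at Y2. The E13 and E15 libraries of both chains lay above all later ones. Among the multiplexins, basement membrane zone proteins with glycosaminoglycan side chains, Col15a1 was highest at P60 with 35.6 and 34.7 FPKM. Col18a1, the source of endostatin, was highest at P3 with 55.7 and 59.4 FPKM and measured 42.03 and 33.9 FPKM at P14 and 11.3 and 11.2 FPKM at P21.

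**Figure D3:**
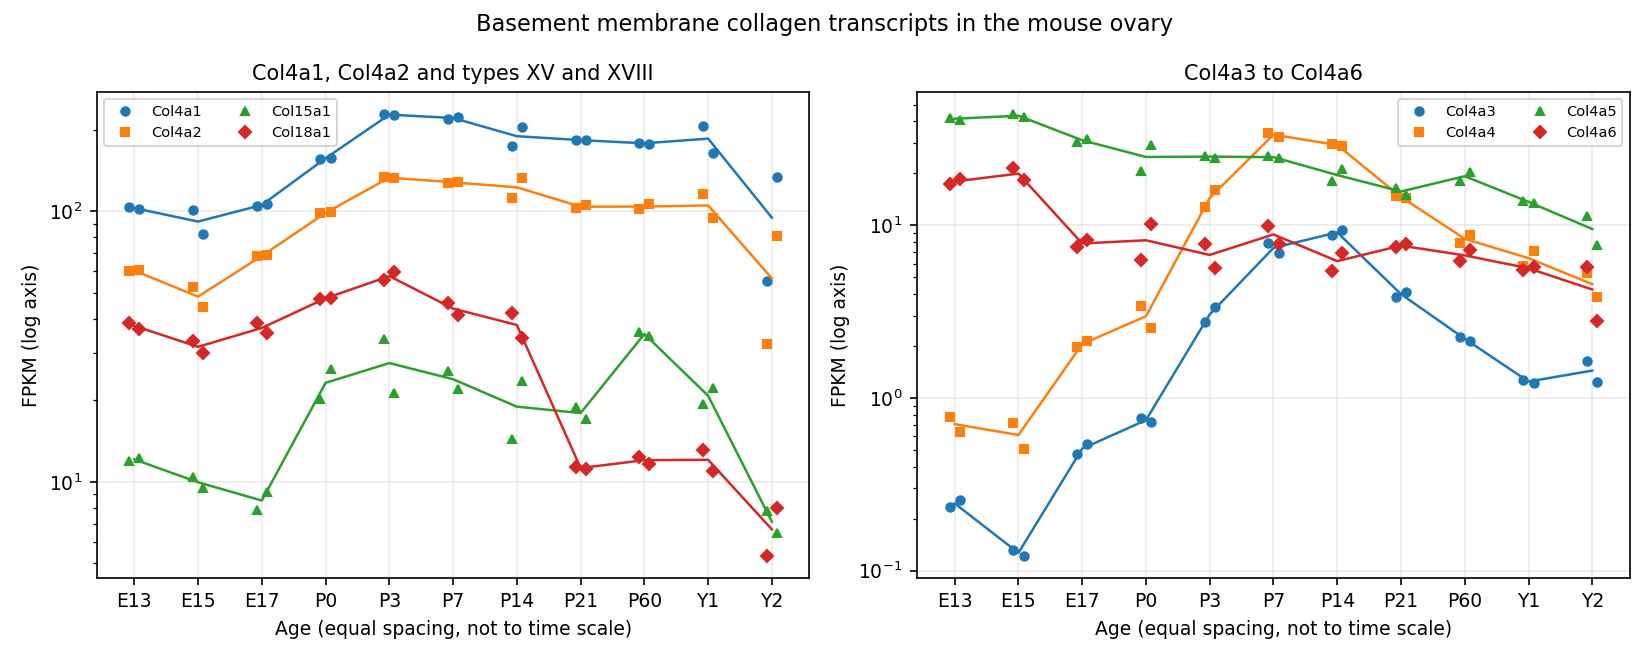
FPKM of the 8 basement membrane collagen chains in each library by age, on log axes. Points are libraries and lines join the age means. Col4a3 and Col4a4 are highest at P7 and P14, Col4a5 and Col4a6 at E13 and E15, and Col18a1 is lower from P21 on.

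The 6 type IV genes lie in 3 pairs that start head to head on opposite strands. In the GENCODE M21 annotation of GRCm38, the starts of Col4a3 and Col4a4 on chromosome 1 are 72 bases apart and those of Col4a5 and Col4a6 on the X chromosome are 1309 apart. These stretches are shown because the members of each pair had their highest levels at like ages. They are from RefSeq on GRCm38.p6, printed 5′ to 3′ on the strand of the gene named: the 71 bases between the starts of Col4a4 and Col4a3 (chr1:82586850-82586920, − strand), 216 exon-free bases before Col4a5 (chrX:141475169-141475384, + strand) and 250 bases before Col4a6 (chrX:141474077-141474326, − strand). Capitals mark the same motifs as above.
Col4a4: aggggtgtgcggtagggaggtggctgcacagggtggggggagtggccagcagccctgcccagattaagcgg
Col4a5: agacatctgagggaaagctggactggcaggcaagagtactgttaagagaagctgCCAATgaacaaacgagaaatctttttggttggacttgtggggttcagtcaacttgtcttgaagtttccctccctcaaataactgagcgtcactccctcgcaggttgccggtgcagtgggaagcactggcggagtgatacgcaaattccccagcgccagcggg
Col4a6: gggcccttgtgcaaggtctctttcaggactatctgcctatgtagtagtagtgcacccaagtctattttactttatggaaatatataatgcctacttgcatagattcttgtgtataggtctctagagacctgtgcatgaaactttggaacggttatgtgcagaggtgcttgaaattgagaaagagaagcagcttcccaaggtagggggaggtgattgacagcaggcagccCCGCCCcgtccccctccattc

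The stretch shared by Col4a3 and Col4a4 held none of these motifs, the one before Col4a5 held 1 CCAAT box and the one before Col4a6 held 1 GC box. Their G and C contents were 69.01%, 52.3% and 47.6%.

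Type VI collagen was the largest part of the other chains. Col6a1 and Col6a2, which join 1 further type VI chain in each molecule, were both highest at P3, with 327 and 319 FPKM for Col6a1 and 189 and 186 FPKM for Col6a2. The ratio of Col6a1 to Col6a2 was 1.58 and 1.58 at E13, 2.02 and 2.10 at P7, 3.18 and 3.05 at P60 and 3.29 and 5.04 at Y2. The lowest ratios were thus those of E13 and the highest those of Y2. Col6a3 is the usual partner of these chains and was highest at P3 and P7, at 47.2 and 43.5 FPKM at P3 and 43.4 and 48.4 FPKM at P7. It was lowest in the aged ovaries, at 15.6 and 14.96 FPKM at Y1 and 16.8 and 13.3 FPKM at Y2, and neighbouring ages overlapped in both cases.

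Col6a4, Col6a5 and Col6a6 are chains that can take the place of Col6a3. Col6a4 measured 0.385 and 0.379 FPKM at E13, 0.906 and 1.21 at E15, 4.86 and 3.85 at E17, 3.92 and 4.45 at P0 and 10.3 and 12.3 at P3. It then measured 22.9 and 22.96 FPKM at P7, 26.5 and 24.5 at P14, 41.9 and 40.3 at P21, 34.4 and 41.03 at P60, 16.6 and 18.5 at Y1 and 32.9 and 19.8 at Y2. Relative to Col6a3 it stood at 0.0169 and 0.0171 at E13, 1.32 and 1.36 at P21 and 1.95 and 1.49 at Y2. Col6a5 measured 0.486 and 0.387 FPKM at E13, 1.27 and 1.27 at E15, 4.45 and 3.45 at E17, 5.47 and 5.75 at P0 and 5.47 and 5.21 at P3. It then measured 4.26 and 3.70 FPKM at P7, 3.79 and 2.71 at P14, 1.06 and 1.09 at P21, 22.6 and 21.3 at P60, 6.46 and 12.1 at Y1 and 3.95 and 3.72 at Y2. Its P60 libraries lay above all others. Col6a6 was highest at P3 with 26.7 and 20.5 FPKM and lowest at P60 with 3.39 and 3.42 FPKM. Col6a5 and Col6a6 share 3.98% and 4.31% of their 31-base words with other genes, so part of their reads may be divided between copies.

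Among the chains that decorate fibrils, Col9a2, a type IX chain, was highest at P3 with 49.1 and 50.7 FPKM and lowest at Y2 with 3.02 and 1.11 FPKM. Col9a2 was the type IX chain at the highest level: Col9a3 peaked at a mean of 2.93 FPKM, and Col9a1 did not pass the filter, with 0.714 and 0.989 FPKM at E13. Col12a1 and Col14a1, which bind type I fibrils, were highest at P3 with 34.7 and 35.1 FPKM for Col12a1 and at E15 with 25.04 and 24.8 FPKM for Col14a1, and Col14a1 was at 0.561 and 0.638 FPKM at P60. Col16a1 was highest at E15 with 39.2 and 40.6 FPKM. Col20a1 was highest at P60 and Y1, at 6.83 and 6.74 FPKM at P60 and 6.74 and 6.76 FPKM at Y1, levels that overlapped. Col22a1, known from junctions of muscle and tendon, stayed at or below 1.43 FPKM.

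Type VIII chains build hexagonal lattices in vessel walls and under corneal endothelium. Col8a2 was highest at E15 with 51.7 and 48.6 FPKM, and Col8a1 was lowest at E13 with 0.339 and 0.425 FPKM and highest at P7 with 14.04 and 19.6 FPKM, so these chains were highest at different ages. Col7a1, the anchoring fibril chain, and the membrane-bound chains Col13a1 and Col23a1 were highest at E15, with means of 7.49, 11 and 13.3 FPKM. Col25a1, also membrane-bound, reached a mean of 1.76 FPKM at P0. Col26a1, first described in testis and ovary, was highest at E15 with 17.6 and 19.9 FPKM and lowest at Y2 with 0.607 and 0.381 FPKM. Col10a1, Col17a1, Col19a1 and Col28a1 did not pass the filter, and of these Col17a1 alone reached 1 FPKM, in 1 library of P3.

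**Figure D4:**
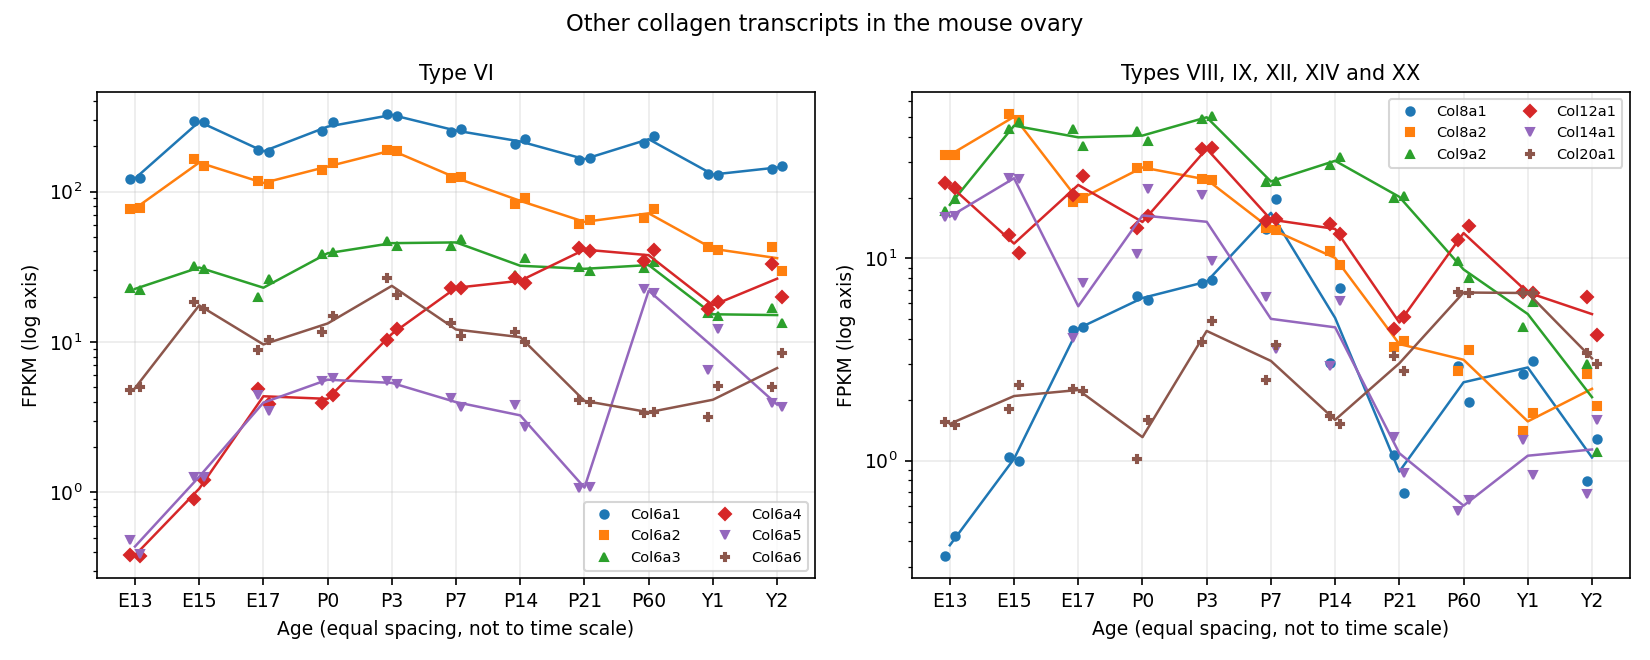
FPKM of type VI chains and of other collagen chains in each library by age, on log axes. Points are libraries and lines join the age means. Col6a5 is highest at P60, at 22.6 and 21.3 FPKM, Col6a4 at P21, at 41.9 and 40.3 FPKM, and Col8a1 at P7.

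Between E13 and E15, when female germ cells are in meiosis, the main fibril chains rose. This comparison was added after the levels at E15 had been seen. Of 38 chains, 15 were higher and 2 lower, where 11.9% of all genes were higher and 12.3% lower (24.3% together). By class, 4 rose and 0 fell of the 10 fibrillar chains, none rose or fell of the 8 basement membrane chains, 11 rose and 2 fell of the 20 other chains. Col1a1 had 463 and 449 FPKM at E15, against 167 and 165 FPKM at E13 (log2 change 1.45, SE 0.17, adjusted p = 5.15e-05). Col1a2 had 197 and 196 FPKM at E15, against 101 and 101 FPKM at E13 (log2 change 0.95, SE 0.11, adjusted p = 6.70e-05). Neither chain's libraries overlapped between these ages. Col3a1 changed by 0.87 on the log2 scale (adjusted p = 7.67e-04), a call lost under quantile normalization. Of the others, Col6a6 had 18.4 and 16.6 FPKM at E15, against 4.81 and 5.06 FPKM at E13 (log2 change 1.64, SE 0.21, adjusted p = 1.15e-04) and Col9a2 had 43.5 and 47.1 FPKM at E15, against 17.2 and 19.6 FPKM at E13 (log2 change 1.26, SE 0.21, adjusted p = 9.09e-04), again without overlap. No basement membrane chain was called, nor was any at an unadjusted p under 0.05 in limma, the only tool run. Median log2 changes were 0.46 for the fibrillar chains, -0.16 for the basement membrane chains and 0.59 for the others, and 0.02 for all genes. Higher genes were 49.2% of all genes called, and 24.7% after each library was rescaled to a fixed total without mitochondrial genes, which moved the median change of all genes by -0.11.

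Genes that process fibrils rose with them. Of the 28 tested genes of collagen crosslinking and maturation, 16 rose and 1 fell, and of 7 small leucine-rich proteoglycans that bind fibrils 6 rose and 0 fell, with 0 lower at an unadjusted p under 0.05. Lox averaged 19.7 ± 1.36 FPKM at E15, against 5.52 ± 0.0670 FPKM at E13 (log2 change 1.66, SE 0.21, adjusted p = 1.22e-04), and encodes the lysyl oxidase that crosslinks fibrils. P3h3 averaged 23.01 ± 1.002 FPKM at E15, against 9.66 ± 0.0517 FPKM at E13 (log2 change 1.17, SE 0.16, adjusted p = 1.60e-04), a gene of the prolyl 3-hydroxylase family. Lum averaged 308 ± 15.5 FPKM at E15, against 109 ± 0.329 FPKM at E13 (log2 change 1.49, SE 0.23, adjusted p = 4.28e-04), and Kera, the keratocan gene, averaged 5.14 FPKM at E15 and 0.879 FPKM at E13. Of the 15 partners of the basement membrane 1 rose and 5 fell, the lower ones including Hspg2 (perlecan; log2 change -0.72) and Lama1 (a laminin chain; log2 change -0.75). Of 8 collagen receptors 2 rose and 2 fell, the integrins Itga1 and Itga2 being lower. The sum of 5 stromal fibroblast markers, of which Dcn and Lum are also in the proteoglycan list, was 1008 to 1066 FPKM at E15 and 434 to 446 FPKM at E13. Of the 5 stromal markers 3 were higher. Smooth muscle and pericyte markers summed to 97.9 to 98.04 FPKM at E15 and 47.3 to 49.7 at E13, with 2 of 5 higher. Macrophage markers summed to 40.8 to 46.01 FPKM at E15 and 24.3 to 27.5 at E13, with 1 of 5 higher. Surface epithelium markers summed to 93 to 95.6 FPKM at E15 and 59.4 to 61.8 at E13, with 1 of 5 higher. Of 5 tested markers each, 2 of granulosa rose, and 3 of mesonephric duct and oviduct and 1 of cartilage and bone fell. The part of these markers in the result was not tested.

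From E15 to E17 most chains that were called fell, in a comparison also added after the levels at E15 had been seen. In all, 6 chains rose and 21 fell of 38 against E15 (18.8% and 15.6% of all genes, 34.4% together), and 0 rose and 8 fell of the 10 fibrillar chains, 2 rose and 2 fell of the 8 basement membrane chains, 4 rose and 11 fell of the 20 other chains. Col1a1 had 166 and 199 FPKM at E17, against 463 and 449 FPKM at E15 (log2 change -1.32, SE 0.17, adjusted p = 3.61e-05). Col11a1 had 1.95 and 2.19 FPKM at E17, against 6.76 and 5.88 FPKM at E15 (log2 change -1.25, SE 0.18, adjusted p = 1.28e-04). Col14a1 had 4.03 and 7.58 FPKM at E17, against 25.04 and 24.8 FPKM at E15 (log2 change -1.98, SE 0.40, adjusted p = 0.0016). All of these had non-overlapping libraries. Col3a1 changed by -0.74 (log2, adjusted p = 0.00126), again lost under quantile normalization. Chains that rose included Col4a4 (log2 change 0.92, adjusted p = 2.12e-04) and Col8a1, which had 4.43 and 4.58 FPKM at E17, against 1.05 and 0.997 FPKM at E15 (log2 change 1.44, adjusted p = 4.92e-04). Col4a6 fell to 7.44 and 8.24 FPKM at E17, against 21.6 and 18.3 FPKM at E15 (log2 change -1.24, adjusted p = 0.00112). The median log2 change was -0.73 for the fibrillar chains, 0.22 for the basement membrane chains and -0.44 for the others, and 0.02 for all genes. Higher genes were 54.8% of all genes called, and 68.2% after the same rescaling, with a shift of the median of 0.11.

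Of the crosslinking and maturation genes 1 rose and 14 fell, and of the small proteoglycans 0 rose and 6 fell, with 0 higher at an unadjusted p under 0.05. Plod1, a lysyl hydroxylase, changed by -1.08 and P3h3 by -1.04 on the log2 scale. Lum, whose product lumican binds fibrils, changed by -2.07 and Kera by -1.75. Of the basement membrane partners 4 rose and 8 fell, with Nid2 (nidogen 2) lower and Lama1 higher, and of the receptors 0 rose and 2 fell, the fallen ones being Ddr2 and the collagen uptake receptor Mrc2. The stromal fibroblast marker sum was 366 to 372 FPKM at E17 and 1008 to 1066 FPKM at E15, with 4 of 5 members lower, and that of 5 macrophage markers 20.2 to 20.7 FPKM at E17 and 40.8 to 46.01 FPKM at E15, also with 4 lower. Their part in these changes was not tested.

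Set directly against E13, E17 had 8 chains higher and 9 lower of 38 (18.6% and 14.2% of all genes, 32.7% together), and 0 rose and 2 fell of the 10 fibrillar chains, 1 rose and 1 fell of the 8 basement membrane chains, 7 rose and 6 fell of the 20 other chains. Col8a1 had 4.43 and 4.58 FPKM at E17, against 0.339 and 0.425 FPKM at E13 (log2 change 1.99, SE 0.25, adjusted p = 3.26e-05). Col6a4 had 4.86 and 3.85 FPKM at E17, against 0.385 and 0.379 FPKM at E13 (log2 change 1.95, SE 0.18, adjusted p = 1.41e-06). Col11a1 had 1.95 and 2.19 FPKM at E17, against 6.60 and 7.61 FPKM at E13 (log2 change -1.40, SE 0.18, adjusted p = 4.88e-05). Their libraries did not overlap. Col1a1, Col1a2 and Col3a1 were not called, with log2 changes of 0.13, -0.19 and 0.14. Among basement membrane chains Col4a6 fell (log2 change -1.10) and Col4a4 rose (log2 change 0.84). Col27a1, a minor fibrillar chain, had 4.70 and 5.70 FPKM at E17, against 7.67 and 7.50 FPKM at E13 (log2 change -0.47, adjusted p = 0.0421), but was no longer called with either E13 library or the first E17 library left out. Of the list genes 5 crosslinking and maturation genes rose and 5 fell, 2 basement membrane partners rose and 6 fell, 0 receptors rose and 3 fell, and 2 small proteoglycans rose and 1 fell. Lox and Loxl1, both lysyl oxidase genes, were higher at E17, with log2 changes of 1.23 and 0.99, and Ddr2, a fibrillar collagen receptor, was lower (log2 change -1.50). Lama3 was higher (log2 change 1.08) and Lama5 lower (log2 change -1.07). The share of higher genes among all called was 56.7%, and 46.3% after quantile normalization.

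From E17 to P3, the days in which germ cell nests break into primordial follicles, chains of every class rose. This comparison was added after the levels at P3 had been seen. In all, 27 of 38 were higher and 0 lower, against 14.6% and 16.8% of all genes (31.3% together), and 0 were lower at an unadjusted p under 0.05. By class 10 rose and 0 fell of the 10 fibrillar chains, 6 rose and 0 fell of the 8 basement membrane chains, 11 rose and 0 fell of the 20 other chains. Col4a4 had 12.7 and 16.02 FPKM at P3, against 1.96 and 2.14 FPKM at E17 (log2 change 2.33, SE 0.14, adjusted p = 2.20e-08). Col15a1 had 33.6 and 21.3 FPKM at P3, against 7.89 and 9.16 FPKM at E17 (log2 change 1.55, SE 0.21, adjusted p = 6.89e-05). Col11a1 had 6.35 and 8.35 FPKM at P3, against 1.95 and 2.19 FPKM at E17 (log2 change 1.43, SE 0.18, adjusted p = 3.62e-05). The P3 libraries of all these chains lay above those of E17. In the other class, Col9a3 had 2.63 and 3.22 FPKM at P3, against 0.510 and 0.530 FPKM at E17 (log2 change 1.36, adjusted p = 3.55e-06). Col14a1 had 20.6 and 9.74 FPKM at P3, against 4.03 and 7.58 FPKM at E17 (log2 change 1.21, adjusted p = 0.033). Col1a1 and Col3a1 changed by 0.79 and 0.62 on the log2 scale, that of Col3a1 no longer called without the first P3 library. Col5a3 had 5.41 and 2.57 FPKM at P3, against 0.449 and 0.821 FPKM at E17 (log2 change 1.56, adjusted p = 0.00638), and the calls of Col5a3 and Col14a1 were each lost without the first E17 or the first P3 library. Median log2 changes were 0.84 for the fibrillar chains, 1.03 for the basement membrane chains and 0.56 for the others, and -0.03 for all genes.

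At P7, with the first growing follicles, 16 chains were higher and 5 lower than at E17, where 16.6% and 20.7% of all genes were (37.3% together). By class 5 rose and 0 fell of the 10 fibrillar chains, 5 rose and 0 fell of the 8 basement membrane chains, 6 rose and 5 fell of the 20 other chains. Col4a4 had 34.4 and 32.5 FPKM at P7, against 1.96 and 2.14 FPKM at E17 (log2 change 3.50, SE 0.14, adjusted p = 2.15e-10). Col4a3 had 7.86 and 6.92 FPKM at P7, against 0.475 and 0.542 FPKM at E17 (log2 change 2.47, SE 0.10, adjusted p = 2.32e-10). Col6a4 had 22.9 and 22.96 FPKM at P7, against 4.86 and 3.85 FPKM at E17 (log2 change 2.17, SE 0.18, adjusted p = 2.23e-07). These chains had no overlapping libraries. Col5a3 rose to 6.11 and 6.22 FPKM at P7, against 0.449 and 0.821 FPKM at E17 (log2 change 2.14). Col8a1 rose to 14.04 and 19.6 FPKM at P7, against 4.43 and 4.58 FPKM at E17 (log2 change 1.68). Col11a1 rose to 7.83 and 8.17 FPKM at P7, against 1.95 and 2.19 FPKM at E17 (log2 change 1.55), while Col1a1 and Col3a1 were not called (log2 changes 0.15 and 0.19). Col4a1 and Col4a2 rose by 1.06 and 0.89, the call of Col4a2 being lost with any 1 library of these ages left out. The median log2 change was 0.46 for the fibrillar chains, 0.98 for the basement membrane chains and 0.06 for the others, and -0.04 for all genes.

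From P3 to P7 Col4a3 and Col4a4 went on rising, while 4 of the 10 fibrillar chains fell. The comparison was also added after the levels at P3 had been seen. Against P3, 5 chains were higher and 14 lower at P7 (7.85% and 8.98% of all genes, 16.8% together), and 0 rose and 4 fell of the 10 fibrillar chains, 2 rose and 0 fell of the 8 basement membrane chains, 3 rose and 10 fell of the 20 other chains. Col4a4 had 34.4 and 32.5 FPKM at P7, against 12.7 and 16.02 FPKM at P3 (log2 change 1.17, SE 0.14, adjusted p = 5.65e-05). Col4a3 had 7.86 and 6.92 FPKM at P7, against 2.75 and 3.34 FPKM at P3 (log2 change 1.05, SE 0.10, adjusted p = 7.73e-06). Col5a2 had 33.5 and 34.96 FPKM at P7, against 76.3 and 63.5 FPKM at P3 (log2 change -1.004, SE 0.14, adjusted p = 1.30e-04). The libraries of each of these chains did not overlap. Col11a2 fell to 0.769 and 1.14 FPKM at P7, against 2.18 and 2.43 FPKM at P3 (log2 change -0.76). Col12a1 fell to 15.4 and 15.8 FPKM at P7, against 34.7 and 35.1 FPKM at P3 (log2 change -1.11). Col14a1 fell to 6.47 and 3.58 FPKM at P7, against 20.6 and 9.74 FPKM at P3 (log2 change -1.38), a call lost without the first P3 or the second P7 library. Col1a1 and Col1a2 had log2 changes of -0.64 and -0.37 (adjusted p = 0.0168 and 0.0379), and the call of Col1a1 was lost without the first P3 or the second P7 library and that of Col1a2 with any 1 of the 4 left out.

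Genes of the basement membrane rose alongside. Of its 15 partners, 11 rose and 1 fell at P3 and 12 rose and 2 fell at P7, both against the same E17 libraries. Lamc3 averaged 15 ± 0.307 FPKM at P7, against 0.522 ± 0.108 FPKM at E17 (log2 change 3.40, SE 0.16, adjusted p = 8.60e-10), and Lama2 averaged 25.9 ± 0.0121 FPKM at P7, against 5.25 ± 0.275 FPKM at E17 (log2 change 2.11, SE 0.14, adjusted p = 3.13e-08), both being laminin chains. Of 28 crosslinking and maturation genes 9 rose and 0 fell at P3, with 0 lower at an unadjusted p under 0.05, and 10 rose and 2 fell at P7. Plod2, a lysyl hydroxylase that prepares crosslinks, and Colgalt2, which adds galactose to collagen, had log2 changes of 1.37 and 1.61 at P7 against E17. Adamts2, which trims the amino ends of procollagen, and Pcolce, which helps trim the carboxyl ends, rose by 0.99 and 1.12 at P3. Of 7 small proteoglycans 5 rose at P3 and 5 at P7, with none lower at an unadjusted p under 0.05 at either age. Ogn averaged 137 ± 13.99 FPKM at P7, against 9.97 ± 0.172 FPKM at E17 (log2 change 3.64, SE 0.16, adjusted p = 4.58e-10). Of 8 receptors 3 rose at P3 and 4 at P7, among them Ddr2 (log2 change 1.41 at P7). From P3 to P7 3 crosslinking and maturation genes rose and 4 fell, 1 basement membrane partner rose and 3 fell, 1 receptor rose and 0 fell, and 1 small proteoglycan rose and 1 fell.

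Cell type markers moved over the same days. The sum of 5 granulosa markers was 91.3 to 117 FPKM at E17, 331 to 392 FPKM at P3 and 1094 to 1175 FPKM at P7. That of 5 smooth muscle and pericyte markers was 69.9 to 75.8 FPKM at E17, 275 to 401 FPKM at P3 and 371 to 415 FPKM at P7. That of 5 stromal fibroblast markers was 366 to 372 FPKM at E17, 711 to 887 FPKM at P3 and 701 to 753 FPKM at P7. At P3 against E17, 5 of 5 smooth muscle and pericyte markers and 4 of 5 stromal markers were higher and none lower. No member of either list was called from P3 to P7. Growing oocyte markers summed to 4.403 to 6.17 FPKM at E17, 805 to 919 FPKM at P3 and 1191 to 1203 FPKM at P7, theca and luteal markers to 7.53 to 9.83 FPKM at E17, 8.71 to 11.1 FPKM at P3 and 204 to 234 FPKM at P7, and fat cell markers to 47 to 63.99 FPKM at P7 and 0.322 to 0.331 FPKM at E17, where Cidec and Lep were listed at 0. All tested members of these 6 lists (4 of the fat cell list and 5 of each other) were called higher at P7 than at E17. Of the other lists, 3 of 5 cartilage and bone and 2 of 5 endothelial markers were higher and 2 of 5 markers of mesonephric duct and oviduct lower, and no macrophage or surface epithelium marker was called, nor was any at an unadjusted p under 0.05. Their part in the collagen changes was not tested.

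From P7 to P21 collagen transcripts fell in every class. Of 38 chains, 2 rose and 25 fell, where 9.06% and 15.7% of all genes did (24.8% together), and 1 rose and 7 fell of the 10 fibrillar chains, 0 rose and 4 fell of the 8 basement membrane chains, 1 rose and 14 fell of the 20 other chains. Col8a1 had 1.07 and 0.696 FPKM at P21, against 14.04 and 19.6 FPKM at P7 (log2 change -3.23, SE 0.25, adjusted p = 5.99e-07). Col18a1 had 11.3 and 11.2 FPKM at P21, against 45.8 and 41.5 FPKM at P7 (log2 change -1.87, SE 0.14, adjusted p = 4.82e-07). Col5a2 had 14.8 and 12.9 FPKM at P21, against 33.5 and 34.96 FPKM at P7 (log2 change -1.25, SE 0.14, adjusted p = 1.14e-05). No library of P21 overlapped with P7 for these chains. Col5a3 fell to 1.498 and 0.932 FPKM at P21, against 6.11 and 6.22 FPKM at P7 (log2 change -1.71). Col8a2 fell to 3.63 and 3.92 FPKM at P21, against 14.2 and 13.8 FPKM at P7 (log2 change -1.65), and Col4a4 fell too (log2 change -1.14). Col1a1, Col1a2 and Col3a1 changed by -1.11, -0.79 and -1.15 on the log2 scale, all called. By contrast, Col11a1 had 18.2 and 16.2 FPKM at P21, against 7.83 and 8.17 FPKM at P7 (log2 change 1.01, SE 0.18, adjusted p = 8.47e-04), and Col6a4 had 41.9 and 40.3 FPKM at P21, against 22.9 and 22.96 FPKM at P7 (log2 change 0.82, SE 0.18, adjusted p = 0.00327). These were the only chains of the 38 called higher. Median log2 changes were -1.13 for the fibrillar chains, -0.51 for the basement membrane chains and -0.91 for the others, and -0.04 for all genes. Among all genes called, 36.5% were higher, and 47.4% after quantile normalization.

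The processing genes did not fall as a group: of 28, 8 rose and 7 fell. Plod2 averaged 102 ± 7.61 FPKM at P21, against 35.8 ± 1.09 FPKM at P7 (log2 change 1.48, SE 0.11, adjusted p = 4.38e-07), whereas Lox changed by -1.45. Of the basement membrane partners 0 rose and 7 fell, with 0 higher at an unadjusted p under 0.05, and the fallen ones included Nid1 (nidogen 1, log2 change -0.85). Itga2, an integrin chain that binds collagen, was the 1 receptor of 8 that rose: it averaged 15.98 FPKM at P21 and 2.90 FPKM at P7, while 2 receptors fell. Of the small proteoglycans 1 rose (Ogn) and 1 fell (Bgn, biglycan). Markers of cartilage and bone summed to 34.9 to 35.03 FPKM at P21 and 14.2 to 16.6 FPKM at P7, mostly from Ihh with 31.3 and 32.5 FPKM at P21, while Col2a1 and Acan, a cartilage proteoglycan gene, were at or near 0 FPKM at P21. Stromal fibroblast markers summed to 482 to 512 FPKM at P21 and 701 to 753 FPKM at P7, with 2 of 5 lower and none higher, and growing oocyte markers to 146 to 170.1 FPKM at P21 and 1191 to 1203 FPKM at P7, with 4 of 5 lower. Granulosa markers summed to 2361 to 2438 FPKM at P21 and 1094 to 1175 FPKM at P7, with 2 of 5 higher and 2 lower, macrophage markers to 58.2 to 64.7 FPKM at P21 and 21.7 to 23.6 FPKM at P7, with 4 of 5 higher, and theca and luteal markers to 453 to 500.5 FPKM at P21 and 204 to 234 FPKM at P7, with 3 of 5 higher. Fat cell markers summed to 6.81 to 14.4 FPKM at P21 and 47 to 63.99 FPKM at P7, with 1 of 4 tested lower. Surface epithelium and mesothelium markers summed to 34.5 to 40.4 FPKM at P21 and 61.7 to 76.6 FPKM at P7, with 2 of 5 lower. Smooth muscle and pericyte markers summed to 511 to 562 FPKM at P21 and 371 to 415 FPKM at P7, with 2 of 5 higher. Of 5 endothelial markers 1 was lower, and of 5 markers of mesonephric duct and oviduct 2 were lower. The part of these markers in the fall of the chains was not tested.

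Between P21 and P60, the span of puberty, fibrillar chains rose. In all, 15 chains rose and 5 fell (6.82% and 6.7% of all genes, 13.5% together), and 6 rose and 1 fell of the 10 fibrillar chains, 1 rose and 2 fell of the 8 basement membrane chains, 8 rose and 2 fell of the 20 other chains. Col6a5 had 22.6 and 21.3 FPKM at P60, against 1.06 and 1.09 FPKM at P21 (log2 change 3.46, SE 0.19, adjusted p = 8.20e-08). Col12a1 had 12.3 and 14.4 FPKM at P60, against 4.48 and 5.16 FPKM at P21 (log2 change 1.30, SE 0.15, adjusted p = 4.99e-05). Col3a1 had 243 and 217 FPKM at P60, against 133 and 128 FPKM at P21 (log2 change 0.81, SE 0.14, adjusted p = 0.00154). Each chain's P60 libraries were above its P21 libraries. In contrast, Col11a1 had 7.58 and 8.94 FPKM at P60, against 18.2 and 16.2 FPKM at P21 (log2 change -0.98, SE 0.18, adjusted p = 0.00229). Col15a1 rose to 35.6 and 34.7 FPKM at P60, against 18.8 and 17.1 FPKM at P21 (log2 change 0.93, adjusted p = 0.00832) and Col4a4 fell (log2 change -0.74, adjusted p = 0.00299). Col1a1 and Col1a2 changed by 0.64 and 0.37 (adjusted p = 0.0201 and 0.0418), and neither call held with any 1 library of these ages left out. With single libraries left out, the number of chains called was 11 to 14 in place of 20, with 11 without the first P60 library and 13 without the first P21 library, and the call of Col15a1 was lost without the second P21 or the first P60 library. The median log2 change was 0.52 for the fibrillar chains, -0.02 for the basement membrane chains and 0.07 for the others, and -0.02 for all genes.

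Of the lists, 5 crosslinking and maturation genes rose and 2 fell, Colgalt2 with a log2 change of 1.21 and Adamts14, a procollagen N-proteinase, with 1.02. Lamc3 was the 1 basement membrane partner that fell (log2 change -0.82) and none rose, with 1 higher at an unadjusted p under 0.05. Of the receptors Itga2 fell (log2 change -1.20) and 2 rose, Ddr2 among them (log2 change 0.60). Of the small proteoglycans Fmod (fibromodulin) fell and Bgn rose. The stromal fibroblast marker sum was 664 to 706 FPKM at P60 and 482 to 512 FPKM at P21, with 1 of its 5 members called higher. Theca and luteal markers summed to 1108 to 1244 FPKM at P60 and 453 to 500.5 FPKM at P21, with 2 of 5 higher and 1 lower, and macrophage markers to 108 to 133 FPKM at P60 and 58.2 to 64.7 FPKM at P21, with 2 of 5 higher. Their part in the fibrillar rise was not tested.

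Both aged groups were set against the same P60 libraries, so their changes share these. At Y1, 18 chains were lower and 0 higher of 38 (9.98% and 4.45% of all genes, 14.4% together), with 1 higher at an unadjusted p under 0.05. By class 0 rose and 7 fell of the 10 fibrillar chains, 0 rose and 2 fell of the 8 basement membrane chains, 0 rose and 9 fell of the 20 other chains. Col5a1 had 23.8 and 20.9 FPKM at Y1, against 42.9 and 40.5 FPKM at P60 (log2 change -0.87, SE 0.15, adjusted p = 0.00158). Col6a4 had 16.6 and 18.5 FPKM at Y1, against 34.4 and 41.03 FPKM at P60 (log2 change -1.06, SE 0.18, adjusted p = 0.00121). Col6a5 had 6.46 and 12.1 FPKM at Y1, against 22.6 and 21.3 FPKM at P60 (log2 change -1.21, SE 0.19, adjusted p = 8.97e-04). All Y1 libraries of these chains lay below those of P60. Col1a1, Col1a2 and Col3a1 changed by -0.79, -0.79 and -0.78 on the log2 scale (adjusted p = 0.00633, 3.66e-04 and 0.00262). The call of Col1a1 was lost without the second Y1 library, and that of Col11a1 (4.62 and 3.99 FPKM at Y1, against 7.58 and 8.94 FPKM at P60, log2 change -0.80) without the second P60 or the second Y1 library. Col4a1 had 207 and 164 FPKM at Y1, against 179 and 178 FPKM at P60, libraries that overlapped (log2 change 0.05, adjusted p = 0.944). Col4a3 fell (log2 change -0.51), and Col15a1 had 19.4 and 22.2 FPKM at Y1, against 35.6 and 34.7 FPKM at P60 (log2 change -0.73), a call lost with any 1 of the 4 libraries left out. Median log2 changes were -0.78 for the fibrillar chains, -0.27 for the basement membrane chains and -0.42 for the others, and -0.09 for all genes. Of all genes called, 30.9% were higher, and 46.7% with libraries scaled by their median of ratios, or 45.9% with quantiles equalised. The count of 0 chains higher did not hold in every fit. Of the chains called, 6.25% were higher with quantiles equalised and 4.76% in the fit without both Y2 libraries.

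Of the crosslinking and maturation genes 1 rose and 9 fell at Y1, with Colgalt2 at a log2 change of -1.24 and P4ha1, a prolyl 4-hydroxylase subunit, at -0.87. At Y1 4 basement membrane partners fell, Lama2 and Pxdn (peroxidasin, which crosslinks type IV collagen) with the largest changes, and 0 rose, with 0 higher at an unadjusted p under 0.05. None of the 8 receptors was called, and 1 was lower and none higher at an unadjusted p under 0.05. Of the small proteoglycans 1 rose and 2 fell, the lower being Ogn (log2 change -1.18) and Fmod (log2 change -0.97).

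At Y2 most chains were lower, Col1a1 and Col3a1 the furthest. In all, 30 of 38 were lower than at P60 and 1 was higher, where 17.4% and 10.8% of all genes were (28.2% together), and 0 rose and 9 fell of the 10 fibrillar chains, 0 rose and 7 fell of the 8 basement membrane chains, 1 rose and 14 fell of the 20 other chains. Col1a1 had 20.5 and 26.6 FPKM at Y2, against 144 and 146 FPKM at P60 (log2 change -2.58, SE 0.17, adjusted p = 4.86e-08). Col3a1 had 40.03 and 45.4 FPKM at Y2, against 243 and 217 FPKM at P60 (log2 change -2.40, SE 0.14, adjusted p = 2.12e-08). Col1a2 had 26.1 and 22.4 FPKM at Y2, against 101 and 105 FPKM at P60 (log2 change -2.05, SE 0.11, adjusted p = 8.23e-09). Both Y2 libraries lay far below both P60 libraries for each of these chains. Among basement membrane chains, Col15a1 had 7.77 and 6.47 FPKM at Y2, against 35.6 and 34.7 FPKM at P60 (log2 change -2.16, SE 0.21, adjusted p = 3.37e-06), while Col4a1 had 55.05 and 134 FPKM at Y2, against 179 and 178 FPKM at P60 (log2 change -1.04, SE 0.26, adjusted p = 0.0083). The Y2 libraries of Col4a1 thus differed from each other by more than those of Col1a1, Col1a2 or Col3a1. In the other class, Col6a5 had 3.95 and 3.72 FPKM at Y2, against 22.6 and 21.3 FPKM at P60 (log2 change -2.24, SE 0.19, adjusted p = 9.61e-07), and Col9a2 had 3.02 and 1.11 FPKM at Y2, against 9.66 and 7.99 FPKM at P60 (log2 change -1.75, SE 0.21, adjusted p = 2.66e-05). Col6a6 was the 1 chain called higher, with 5.01 and 8.39 FPKM at Y2, against 3.39 and 3.42 FPKM at P60 (log2 change 0.77, adjusted p = 0.0124), and it was named after its values were seen. Its call was lost without either P60 library, without the second Y2 library and in the fit of the P60 and Y2 libraries alone. The median log2 change was -1.46 for the fibrillar chains, -0.87 for the basement membrane chains and -0.73 for the others, and -0.04 for all genes.

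Type IV chains besides Col4a1 had log2 changes of -1.01 for Col4a2, -0.40 for Col4a3, -0.76 for Col4a4, -0.96 for Col4a5 and -0.61 for Col4a6 at Y2, the last not called (adjusted p = 0.0736). In a fit of the P60 and Y2 libraries alone, 7 chains were called lower in place of 30, and of the chains named above Col4a1 to Col4a5 and Col9a2 were not among them. That fit called 318 of all 16117 genes in either direction, in place of 4548. The call of Col4a2 was also lost without the second P60 library, and that of Col4a3 without the first P60 or the second Y2 library.

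Genes that process and bind collagen were lower too. Of 28 crosslinking and maturation genes 21 fell and 0 rose, with 1 higher at an unadjusted p under 0.05. Lox averaged 1.86 ± 0.930 FPKM at Y2, against 7.995 ± 1.89 FPKM at P60 (log2 change -1.68, SE 0.21, adjusted p = 3.67e-05). Colgalt2 averaged 3.56 ± 0.109 FPKM at Y2, against 13.7 ± 1.501 FPKM at P60 (log2 change -1.69, SE 0.14, adjusted p = 5.53e-07). Of the 15 partners of the basement membrane 9 fell and 1 rose, with Nid1 and Lamc3 both at a log2 change of -1.25. Among receptors 4 of 8 fell, among them Mrc2 (log2 change -0.88) and Ddr1, a receptor that binds fibrillar and type IV collagen (log2 change -0.76), and 4 of 7 small proteoglycans, among them Fmod (log2 change -1.36) and Ogn (log2 change -1.17). No member of these 2 lists was called higher, nor was any higher at an unadjusted p under 0.05. Decorin (Dcn), the most abundant small proteoglycan here, had 597 and 239 FPKM at Y2, against 380.1 and 417 FPKM at P60, libraries that overlapped.

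Markers of several cell types differed at these ages. The stromal fibroblast marker sum was 664 to 706 FPKM at P60, 569 to 698 FPKM at Y1 and 367 to 820.2 FPKM at Y2, with 1 of 5 members lower at Y1, 3 lower at Y2 and none higher at either age. Granulosa markers summed to 1634 to 1885 FPKM at P60, 1035 to 1037 FPKM at Y1 and 609 to 711 FPKM at Y2, with 4 of 5 lower at each aged time. Growing oocyte markers summed to 132 to 134 FPKM at P60, 46.8 to 51.4 FPKM at Y1 and 11.97 to 51.5 FPKM at Y2, with all 5 lower at both. The granulosa and oocyte lists were thus lower in aged ovaries by most or all of their members. Theca and luteal markers summed to 1108 to 1244 FPKM at P60, 3258 to 4231 FPKM at Y1 and 569 to 5589.6 FPKM at Y2. The Y2 libraries differed from each other by more than those of any other marker list. Of the 5 theca and luteal markers, 1 was higher and 2 lower at Y1, and 0 were higher and 2 lower at Y2. Their higher sum at Y1 was thus not shared by most members. Fat cell markers summed to 3.27 to 70.1 FPKM at Y1 and 7.25 to 9.15 FPKM at P60, so the Y1 libraries stood far apart. Smooth muscle and pericyte markers summed to 378 to 427 FPKM at Y2 and 561 to 587 FPKM at P60, macrophage markers to 167 to 210.3 FPKM at Y2 and 108 to 133 FPKM at P60, surface epithelium and mesothelium markers to 52.5 to 121 FPKM at Y2 and 33.5 to 34.4 FPKM at P60, and endothelial markers to 60.1 to 99.2 FPKM at Y2 and 50.9 to 54.5 FPKM at P60. Of 5 smooth muscle and pericyte markers 1 was lower at Y2 and none higher. Of 5 members each, 2 macrophage, 3 surface epithelium and mesothelium and 4 endothelial markers were higher at Y2 and none lower. The part of these markers in the fall of the collagen chains was not tested.

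**Figure D5:**
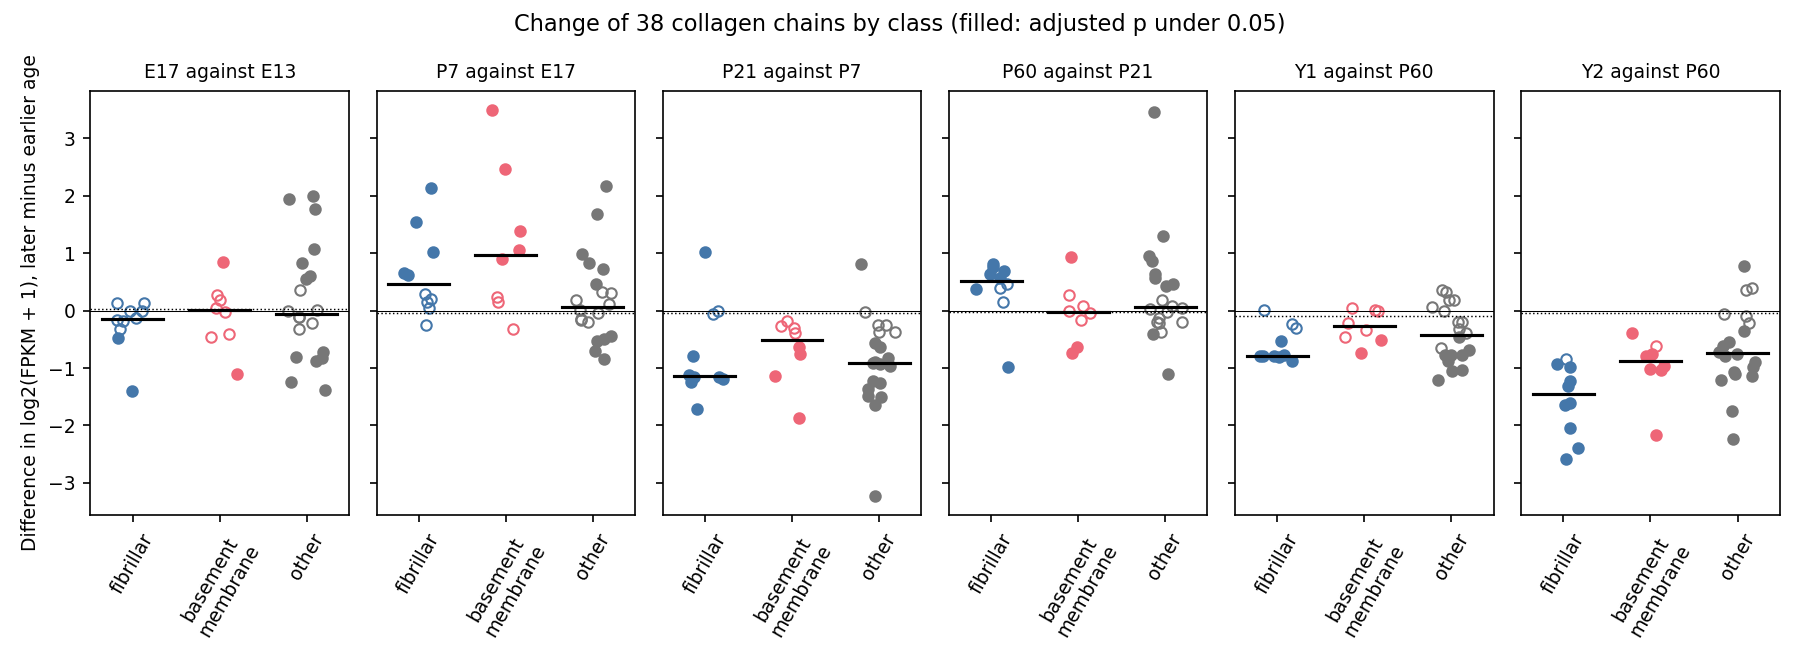
Difference in log2(FPKM + 1), later age minus earlier age, of the 38 tested collagen chains in 6 comparisons, by class. Points are chains, filled where called, bars are class medians and the dotted line is the median of all genes. The medians of the fibrillar, basement membrane and other chains were 0.46, 0.98 and 0.06 for P7 against E17 and -1.46, -0.87 and -0.73 for Y2 against P60.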

How the data were processed

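The deposited table holds FPKM per gene for 22 libraries. Per the submitters' processing notes the authors used HISAT2, StringTie and edgeR on mm10, while the design text names TopHat, so the aligner behind these values is not certain. The sources used here do not name versions, annotation, strand setting or the treatment of multiply aligned reads. Because FPKM share 1 total per library, strong changes of abundant transcripts shift the rest.

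No read counts were used. Depth was estimated from low FPKM of genes with 1 transcript, where each value is a whole number of reads times 1 step: 1158 to 1444 values per library were checked and 94.5% to 97.1% were whole within 0.02 reads. Reads of other genes could not be recovered, so no count test was run.

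The filter (1 FPKM or more in 2 or more libraries) kept 16117 of 34745 genes. Each comparison was a contrast in 1 limma 3.58.1 fit (R 4.3.3) of log2(FPKM + 1) with age as a factor of 11 levels, an intensity trend and 11 residual degrees of freedom. Adjustment of p-values (Benjamini-Hochberg) ran over all genes within each comparison, with calls at 0.05. Each gene's spread is estimated over all ages. The fit was also run on simulated data with 1 spread per gene at all ages. That run could not check the calls at Y2, where replicates differed more than at other ages.

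The comparisons were E17 against E13, P7 against E17, P21 against P7, P60 against P21, and Y1 and Y2 against P60. E15 against E13, E17 against E15, P3 against E17 and P7 against P3 were added after the levels at E15 and P3 had been seen. The chains, the gene lists and the tests were chosen with earlier results of these data known. Col1a1, Col1a2, Col3a1 and Col4a1 to Col4a6 are given per library at every age. Each comparison names the 2 called chains of each class with the largest log2 change, with values per library there or at their levels by age, and of each list the 2 called genes with the largest change are named. One gene that this rule would name is not reported here. Other chains are given for their levels. Gene positions are from GENCODE M21 on GRCm38, where all 44 chains matched, and 13 have exons that overlap those of another gene. Promoters are from RefSeq on GRCm38.p6, where 35 of the 44 chains matched by symbol. Alternatives covered the pseudocount, the filter, 3 scalings between libraries, the trend, the replicate number as a block, each library left out, and the Y2 libraries left out.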

Additional observations from a re-analysis of the deposited data

How the results depend on the processing

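All 38 chains stayed called in the F test under each alternative run. Over 161 recomputed counts of called chains, 158 stayed within 1.5 times the value reported. For named chains, 1168 log2 changes were recomputed, only where the chain was called in the main fit. Of these none changed sign, 1097 stayed called and 71 were no longer called. As the chains were picked by their calls in the same libraries, an unchanged sign was likely from the start. The counts that moved were those of P60 against P21, with 11 to 14 chains when single libraries were left out in place of 20 (13 without the first P21 library and 11 without the first P60 library), and that of Y2 against P60, with 7 in place of 31 in a fit of those 4 libraries alone, which leaves far fewer residual degrees of freedom. With single libraries left out, 14 to 15 chains were called in E17 against E13, 17 to 18 in P7 against E17, 24 to 27 in P21 against P7, 14 to 15 in Y1 against P60, 27 to 32 in Y2 against P60, 12 to 13 in E15 against E13, 22 to 25 in E17 against E15, 21 to 25 in P3 against E17 and 13 to 16 in P7 against P3. The number of all genes called in these fits was not recorded. The fit of the P60 and Y2 libraries alone called 318 of all 16117 genes, in place of 4548. Without both Y2 libraries, whose replicates differ most, Y1 against P60 had 21 chains called, and 3862 of all genes in place of 2326. Replicate numbers did not pair the libraries: over 55 pairs of ages the deviations of same-numbered libraries correlated between -0.129 and 0.265. With the replicate block 16 to 31 chains were called in the 10 comparisons, and 2101 to 5916 of all genes. Each age had 2 libraries, and chains far under 1 FPKM rest on few reads.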
